A study of Homo sapiens with 12 samples.

Results

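The 9 transcription factors followed here carry out the epithelial to mesenchymal transition (EMT): SNAI1, SNAI2, ZEB1, ZEB2, TWIST1, TWIST2, PRRX1, HMGA2 and TCF4. They were taken by gene symbol from RNA-seq counts of A549 cells, a human lung adenocarcinoma line with alveolar epithelial features. Of these 9 genes, 8 were found among the 24459 genes of the table for TGF-β1 and control and among the 24745 genes of the table for TGF-β1 plus acetate and TGF-β1. PRRX1, a homeobox gene on chromosome 1 (170662728 to 170739419, GENCODE 29), stood in neither table and was below their filter on low values, so it has no value. The cells received 10 ng/mL TGF-β1 together with 40 mM sodium acetate, 10 ng/mL TGF-β1 alone, or neither (control), for 2 days. Each of these 3 groups had 4 libraries of ribosomal-RNA-depleted total RNA from the same cell line. The design holds no acetate without TGF-β1 and no sodium without acetate, so an effect of acetate on its own cannot be told apart from one that needs TGF-β1, nor from one of sodium.

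The transition replaces epithelial adhesion with a migratory, matrix-producing state. SNAI1 (Snail) and SNAI2 (Slug) are zinc finger repressors and ZEB1 and ZEB2 are zinc finger and homeodomain repressors; both families bind E-box motifs in the promoters of E-cadherin (CDH1) and other junction and polarity genes. TWIST1 and TWIST2 are basic helix-loop-helix (bHLH) factors that pair with E proteins, among them TCF4 (also called E2-2, and not the Wnt effector TCF7L2), and the ID proteins sequester those partners. HMGA2 is an architectural chromatin protein whose mRNA is a classical target of the let-7 microRNAs, and the miR-200 family holds ZEB1 and ZEB2 down in epithelial cells. TGF-β receptors act through SMAD proteins, which together with HMGA2 can switch on SNAI1.

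Promoter windows were available for 5 of the 9 factors and for 3 of the 14 genes of a list of epithelial targets. They show the E-box form CACCTG, which the Snail and ZEB families bind, and where that exact form is absent. Shorter or variant forms of the motif are not marked. The polarity genes CRB3 and PATJ, both known targets of the family, were chosen as the target windows with the most matches, ZEB1 as the only factor with a match, and ZEB2 as its relative. Each line runs 5′ to 3′ from 250 bases before to 50 after a gene start in RefSeq (GRCh38.p14), and capitals mark the E-box CACCTG, read on both strands and so also as CAGGTG.
CRB3, chr19:6464021-6464320, plus strand: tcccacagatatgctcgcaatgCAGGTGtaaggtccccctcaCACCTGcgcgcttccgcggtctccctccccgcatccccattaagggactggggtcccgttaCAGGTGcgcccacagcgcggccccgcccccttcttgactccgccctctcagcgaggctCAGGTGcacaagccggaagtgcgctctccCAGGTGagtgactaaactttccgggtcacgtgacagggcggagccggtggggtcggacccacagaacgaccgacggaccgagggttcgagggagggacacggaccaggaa
PATJ, chr1:61742230-61742529, plus strand: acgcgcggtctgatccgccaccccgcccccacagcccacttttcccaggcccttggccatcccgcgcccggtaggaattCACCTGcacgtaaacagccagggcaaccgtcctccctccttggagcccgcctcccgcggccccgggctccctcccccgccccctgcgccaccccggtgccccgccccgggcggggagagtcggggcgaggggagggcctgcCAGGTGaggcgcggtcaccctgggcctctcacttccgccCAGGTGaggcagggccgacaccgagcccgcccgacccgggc
ZEB1, chr10:31318966-31319265, plus strand: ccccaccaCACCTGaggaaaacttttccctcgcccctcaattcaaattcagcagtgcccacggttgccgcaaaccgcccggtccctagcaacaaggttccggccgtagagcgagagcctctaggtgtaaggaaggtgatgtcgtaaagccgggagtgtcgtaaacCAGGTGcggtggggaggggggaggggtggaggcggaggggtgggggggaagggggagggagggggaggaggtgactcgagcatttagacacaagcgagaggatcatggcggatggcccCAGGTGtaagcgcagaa
ZEB2, chr2:144520070-144520369, minus strand: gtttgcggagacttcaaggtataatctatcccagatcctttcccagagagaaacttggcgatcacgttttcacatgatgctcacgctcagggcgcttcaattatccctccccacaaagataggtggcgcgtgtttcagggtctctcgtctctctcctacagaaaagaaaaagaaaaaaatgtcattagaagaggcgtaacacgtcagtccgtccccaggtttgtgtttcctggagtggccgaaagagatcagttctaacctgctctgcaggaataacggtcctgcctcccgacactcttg

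The CRB3 window held 5 E-boxes, all upstream of the start, and the PATJ window held 3. Of 35116 promoter windows of this length, 20.6% held at least 1 such E-box, 0.635% at least 3 and 0.094% at least 5. ZEB1 has 7 windows in the table, since it has several starts; the one shown held 3 E-boxes, another held 1 and the remaining windows held 0. The windows of ZEB2, TWIST2, PRRX1 and the 10 starts of TCF4 held 0 of this exact form. RAB25, the other target of the list with a window, held 2, and it stood in neither table. The counts do not tell which start was used.

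Libraries held between 34.7 and 41.6 M counts (M stands for 1e+06) with TGF-β1 plus acetate, between 37.2 and 53.9 M with TGF-β1 and between 38.4 and 53.1 M in control, so that 3 counts came to at most 0.0865 CPM, counts scaled to the same library total. Levels below are CPM scaled by trimmed mean of M-values (TMM), as mean ± SD over 4 libraries, and gene positions are those of the files on hg38. No sample label states which count column belongs to which group; columns were placed by the names of the tables that hold them, every comparison rests on that, and libraries carry their column codes (S22 to S25 TGF-β1 plus acetate, S15 to S18 TGF-β1, S1 to S4 control). The labels do not say whether libraries came from separate cultures, so each p-value reflects only how far these libraries differ among themselves, which could be technical spread. All 9 markers of the A549 line were in the tables, and the keratins KRT7, KRT8 and KRT18 were at 1392 CPM or more in every library. Of the 9, 2 rose and 6 fell under TGF-β1, 8 rose and 1 fell with acetate on TGF-β1, and 4 rose and 4 fell with both agents against control. Of all genes tested, 34.1% rose and 32.8% fell in the first comparison. In the second 33.3% rose and 30.4% fell, and in the third 36.1% rose and 34.4% fell. The markers went different ways: ALDH1A1 rose under TGF-β1 and fell with acetate (log2 fold changes 0.63 and -1.02), KRT7 rose in both (0.33 and 0.25), and AKR1B10 and CEACAM6 were below control with both agents (-2.46 and -2.77). The endothelial markers PECAM1, VWF, CDH5 and KDR and the leukocyte markers PTPRC, CD3E, LYZ and MS4A1 stood in neither table. The endothelial marker TEK was at most 1.17 CPM in any library, and the leukocyte-list genes CD14 and CD68 summed to 23.9 to 25.3 CPM with acetate, 13.3 to 16.6 CPM with TGF-β1 and 11.9 to 14.6 CPM in control.

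With TGF-β1 alone, 6 of the 8 measured factors rose and none fell. The pair that did not pass was ZEB2 and TWIST1. SNAI1 rose most, 9.07-fold, followed by SNAI2 (4.94-fold), TCF4 (3.81-fold), HMGA2 (2.16-fold), ZEB1 (1.40-fold) and TWIST2 (1.27-fold). When acetate was present with TGF-β1, SNAI1, TCF4, ZEB1 and SNAI2 were lower than with TGF-β1 alone, while HMGA2 and ZEB2 were higher. Against control, TGF-β1 plus acetate left 7 of the 8 factors higher and none lower. TWIST1 passed in none of the 3 comparisons.

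**Figure D1:**
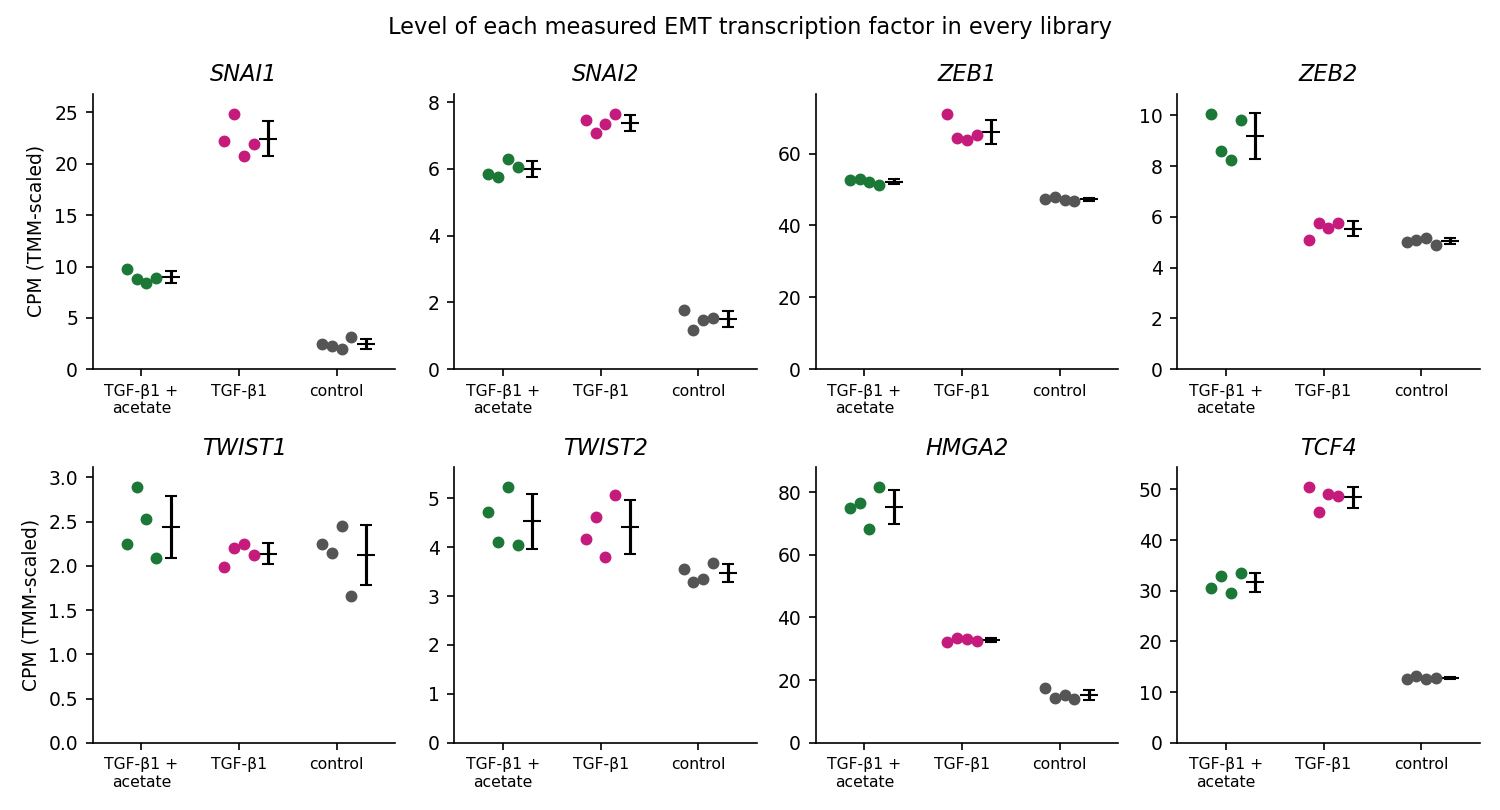
CPM of each measured factor in each of the 12 libraries (points, linear axis from 0), with the mean and SD of each group of 4 beside them. SNAI1, SNAI2, ZEB1 and TCF4 lie highest with TGF-β1 alone, whereas HMGA2 and ZEB2 lie highest with TGF-β1 plus acetate, and the 3 groups overlap for TWIST1.

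These counts of factors have to be read against the whole tables, in which most genes passed. For TGF-β1 against control, 66.9% of 22051 tested genes had an edgeR adjusted p below 0.05, 34.1% higher and 32.8% lower, and 61.4% had groups of libraries that did not overlap; of the 8 factors, 6 passed and 6 had groups that did not overlap. For TGF-β1 plus acetate against TGF-β1 these shares were 63.7% of 22336 genes, 33.3% higher, 30.4% lower and 57.4% not overlapping, and of the factors 2 were higher, 4 were lower and 6 did not overlap. In that comparison 52.3% of the genes called were higher with TMM and 67.1% with library totals. For TGF-β1 plus acetate against control they were 70.6% of 22742 genes, 36.1% higher, 34.4% lower and 64% not overlapping, and of the factors 7 were higher and 7 did not overlap. The share of factors that passed was therefore near that of all genes. The median log2 fold change of the 8 factors was 0.80 under TGF-β1, -0.12 for acetate on TGF-β1 and 1.09 for both agents against control, beside medians of 0.02, 0.03 and 0.02 over all genes tested. The comparisons share libraries (TGF-β1 in the first 2, control in the first and the last), so they are not independent of each other.

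SNAI1 (chromosome 20, 49982999 to 49988886, ENSG00000124216.3) is the immediate Snail repressor of E-cadherin. Its 4 libraries held 9.75, 8.76, 8.37 and 8.86 CPM with TGF-β1 plus acetate, 22.3, 24.9, 20.8 and 21.9 CPM with TGF-β1, and 2.42, 2.25, 1.97 and 3.16 CPM in control. Every TGF-β1 library lay above every acetate library, and every acetate library lay above every control library. The log2 fold change was 3.18 (SE 0.102, edgeR adjusted p = 6.3e-14) for TGF-β1 against control and -1.32 (SE 0.0678, edgeR adjusted p = 1.6e-10) for acetate on TGF-β1. With acetate SNAI1 thus stood at 365% of the control mean, against 917% with TGF-β1 alone. The change under TGF-β1 was larger in size than that of 97.3% of all genes tested.

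SNAI2 (chromosome 8, 48917690 to 48921740, ENSG00000019549.8), the Slug relative of SNAI1, followed the same order with a smaller response to acetate. It held 5.86, 5.75, 6.31 and 6.07 CPM with TGF-β1 plus acetate, 7.45, 7.08, 7.36 and 7.65 CPM with TGF-β1, and 1.78, 1.18, 1.48 and 1.54 CPM in control. The groups did not overlap in any comparison. TGF-β1 gave a log2 fold change of 2.30 (SE 0.106, edgeR adjusted p = 7.3e-12), and acetate on TGF-β1 one of -0.29 (SE 0.0716, edgeR adjusted p = 0.0023). The fall with acetate had the largest adjusted p of the 6 factors called there. When libraries were scaled by their totals in place of TMM it was -0.16 and did not pass (edgeR adjusted p = 0.066, with values from 0.0013 to 0.066 among the alternatives tried).

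ZEB1 (chromosome 10, 31318495 to 31529814, ENSG00000148516.21) was already well expressed without TGF-β1. It held 52.6, 52.9, 52.2 and 51.2 CPM with TGF-β1 plus acetate, 71.0, 64.3, 63.8 and 65.3 CPM with TGF-β1, and 47.3, 47.9, 47.2 and 46.8 CPM in control. The acetate libraries lay close above control, and the TGF-β1 libraries lay apart above both, S15 highest. Log2 fold changes were 0.49 (SE 0.0396, edgeR adjusted p = 1.2e-08) for TGF-β1 against control, -0.33 (SE 0.0415, edgeR adjusted p = 4.2e-06) for acetate on TGF-β1 and 0.14 (SE 0.0373, edgeR adjusted p = 0.0023) for both agents against control. Its antisense gene ZEB1-AS1 overlaps 4.23% of the ZEB1 exons on the opposite strand; it held 3.84 ± 0.339 CPM with acetate, 5.07 ± 0.38 CPM with TGF-β1 and 4.25 ± 0.409 CPM in control. ZEB1-AS1 rose with TGF-β1 (log2 fold change 0.25, edgeR adjusted p = 0.024) and fell with acetate (-0.38, edgeR adjusted p = 0.0025). Whether reads were counted by strand is not given in the sources used here, so reads of overlapping antisense pairs may not be told apart.

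ZEB2 (chromosome 2, 144384081 to 144524583, ENSG00000169554.17) did the opposite of ZEB1 with acetate. It held 10.1, 8.58, 8.22 and 9.82 CPM with TGF-β1 plus acetate, 5.10, 5.76, 5.56 and 5.75 CPM with TGF-β1, and 5.00, 5.10, 5.16 and 4.89 CPM in control. All 4 acetate libraries were above all 8 others, and the TGF-β1 and control libraries overlapped. Acetate on TGF-β1 gave a log2 fold change of 0.74 (SE 0.0833, edgeR adjusted p = 1.3e-06), and TGF-β1 against control one of 0.14 (SE 0.0757) that did not pass (edgeR adjusted p = 0.11). In the authors' deposited table that last comparison has p = 0.08 and a q-value of 0.0274, below 0.05 by that measure. ZEB2-AS1, which overlaps ZEB2, stood in neither table. The symbol MIR200CHG, a host gene of the miR-200 family, was also in neither, though it was searched by symbol only.

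**Figure D2:**
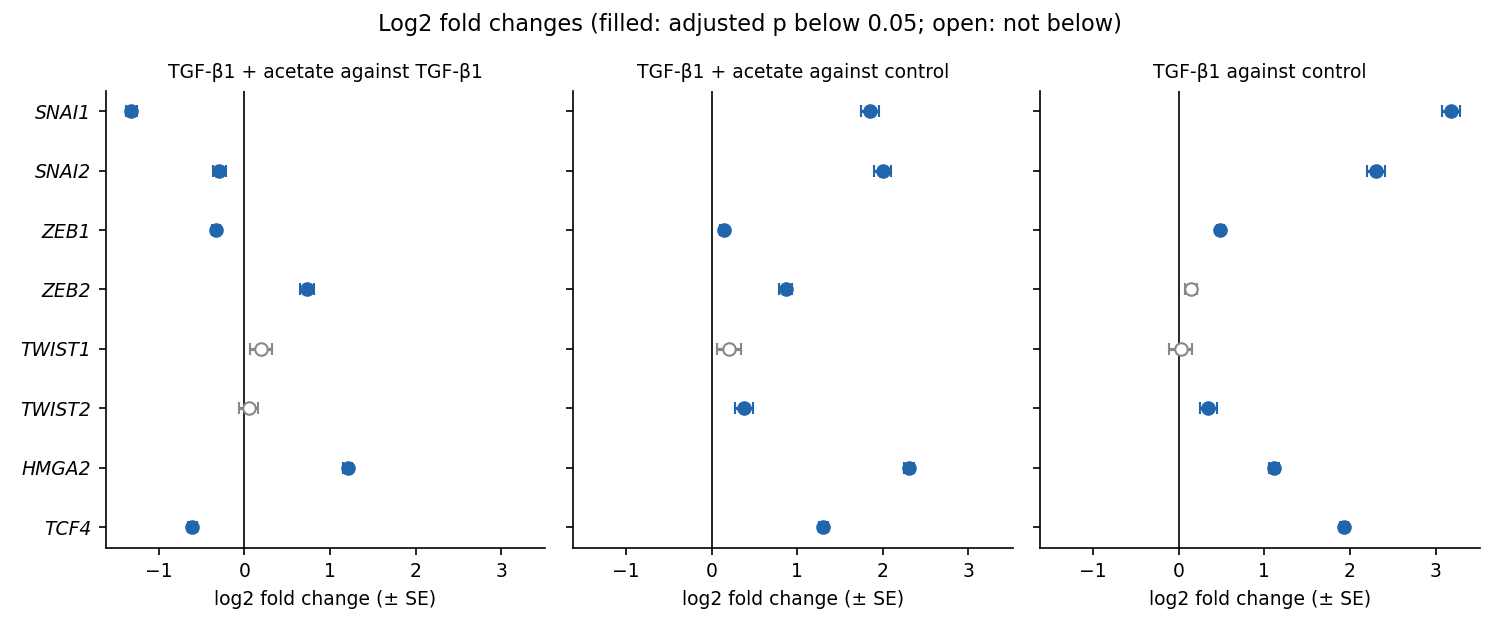
Log2 fold changes of the 8 factors with their standard errors in the 3 comparisons, first-named group over the second; filled points have an edgeR adjusted p below 0.05. In the left panel SNAI1, SNAI2, ZEB1 and TCF4 lie left of 0 and ZEB2 and HMGA2 right of it, while in the middle panel every factor except TWIST1 is filled and lies right of 0.

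TWIST1 (chromosome 7, 19020991 to 19117672, ENSG00000122691.12) had low counts, from 77 to 114 reads a library. Its level was 2.44 ± 0.351 CPM with TGF-β1 plus acetate, 2.14 ± 0.115 CPM with TGF-β1 and 2.13 ± 0.339 CPM in control, with overlapping groups throughout. The log2 fold change was 0.20 (SE 0.13, edgeR adjusted p = 0.20) for acetate on TGF-β1 and 0.02 (SE 0.133, edgeR adjusted p = 0.88) for TGF-β1 against control. With library totals in place of TMM the first of these was 0.33 and passed (edgeR adjusted p = 0.037, with values from 0.037 to 0.52 among the alternatives tried). With that scaling the factors in acetate were thus 3 higher and 3 lower.

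TWIST2 (chromosome 2, 238848032 to 238910543, ENSG00000233608.3) held 4.72, 4.11, 5.22 and 4.05 CPM with TGF-β1 plus acetate, 4.17, 4.62, 3.81 and 5.07 CPM with TGF-β1, and 3.56, 3.29, 3.35 and 3.69 CPM in control. Both treated groups lay just above control and overlapped each other. It rose by a log2 fold change of 0.34 (SE 0.101, edgeR adjusted p = 0.0067) under TGF-β1 and by 0.38 (SE 0.107, edgeR adjusted p = 0.0038) under both agents against control. For acetate on TGF-β1 the value was 0.05 (SE 0.113, edgeR adjusted p = 0.71).

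HMGA2 (chromosome 12, 65824131 to 65966295, ENSG00000149948.13) was lowest in control, higher with TGF-β1 and highest with TGF-β1 plus acetate. It held 75.1, 76.4, 68.2 and 81.5 CPM with TGF-β1 plus acetate, 32.2, 33.4, 33.2 and 32.6 CPM with TGF-β1, and 17.4, 14.3, 15.3 and 14.0 CPM in control. The 3 groups lay apart from each other, and relative to the mean the spread was 7.31% with acetate, 1.73% with TGF-β1 and 9.84% in control (SD over mean). The log2 fold change was 1.11 (SE 0.0582, edgeR adjusted p = 4.0e-11) for TGF-β1 against control, 1.21 (SE 0.0481, edgeR adjusted p = 9.4e-12) for acetate on TGF-β1 and 2.30 (SE 0.0614, edgeR adjusted p = 7.6e-17) for both agents against control. The antisense gene AC090673.1, which shares 384 exonic bases with HMGA2, had mean counts of 99 with acetate, 39.3 with TGF-β1 and 21 in control, a small number beside those of HMGA2.

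TCF4 (chromosome 18, 55222198 to 55664787, ENSG00000196628.14) was the factor whose rise with TGF-β1 had the smallest p. It held 30.4, 32.9, 29.6 and 33.5 CPM with TGF-β1 plus acetate, 50.4, 45.6, 49.0 and 48.8 CPM with TGF-β1, and 12.6, 13.1, 12.7 and 12.7 CPM in control. The 3 groups did not overlap, with acetate between the others. Log2 fold changes were 1.93 (SE 0.0444, edgeR adjusted p = 9.0e-16) for TGF-β1 against control, -0.61 (SE 0.0484, edgeR adjusted p = 2.5e-08) for acetate on TGF-β1 and 1.31 (SE 0.0494, edgeR adjusted p = 1.4e-14) for both agents against control.

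The ratio of the counts of related factors within a library needs no scaling between libraries. These ratios were chosen after the values were seen and are given as a description. In an exact permutation test none passed after Benjamini-Hochberg adjustment over 9 tests (lowest adjusted p = 0.051). With 4 libraries against 4, the smallest p that this test can give is 0.0286 before adjustment. ZEB1 had 5.23, 6.17, 6.34 and 5.21 times the counts of ZEB2 with TGF-β1 plus acetate, 13.9, 11.2, 11.5 and 11.4 times with TGF-β1, and 9.47, 9.38, 9.14 and 9.58 times in control. The 3 groups did not overlap, and the ratio was 2.09-fold lower with acetate than with TGF-β1. SNAI1 had a geometric mean of 1.49 times the counts of SNAI2 with TGF-β1 plus acetate, 3.03 times with TGF-β1 and 1.63 times in control. Here the acetate and control libraries overlapped (log2 difference -0.13), and both lay below TGF-β1. TWIST1 had 0.537 times the counts of TWIST2 with TGF-β1 plus acetate, 0.486 times with TGF-β1 and 0.607 times in control, and these overlapped in all 3 comparisons.

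**Figure D3:**
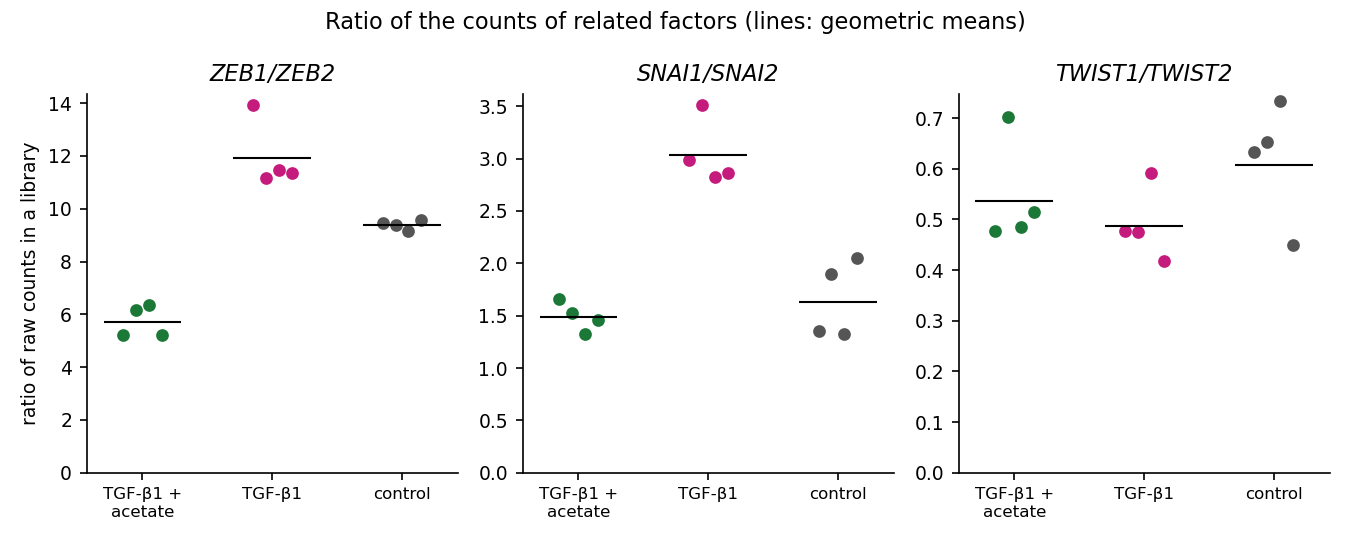
Ratio of raw counts of related factors in each library (points) with the geometric mean of each group (lines), linear axes from 0. The ZEB1/ZEB2 ratio separates all 3 groups and is lowest with acetate, the SNAI1/SNAI2 ratio is high in the TGF-β1 group alone, and the TWIST1/TWIST2 groups overlap. Gene lengths differ, so a ratio is not the ratio of transcript numbers.

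Levels of different genes were compared per kilobase of merged GENCODE 29 exons. With TGF-β1 plus acetate the order by mean CPM per kb was ZEB1 (6.04 ± 0.0866), SNAI1 (5.30 ± 0.346), HMGA2 (4.89 ± 0.358), TWIST2, SNAI2, TWIST1, TCF4 and ZEB2 (0.366 ± 0.0361). SNAI1 and HMGA2 overlapped in that order, and so did TWIST1 and TCF4. With TGF-β1 alone SNAI1 led at 13.3 ± 1.03 CPM per kb, above ZEB1 at 7.64 ± 0.386. In control ZEB1 led at 5.47 ± 0.05 CPM per kb, above TWIST2 at 1.85 ± 0.0994, which overlapped SNAI1 at 1.45 ± 0.302. SNAI1 was 22.9% of the summed level per kb of the 8 factors with acetate, 43.5% with TGF-β1 and 12.2% in control. ZEB2 came last in every group. The order and the shares depend on the length used: per kb of the longest transcript HMGA2 came first with acetate (9.30 CPM per kb), ahead of ZEB1 (8.33) and SNAI1 (5.30). By that length SNAI1 had rank 5 in control, against rank 3 by merged exons, and rank 1 with TGF-β1 by both.

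**Figure D4:**
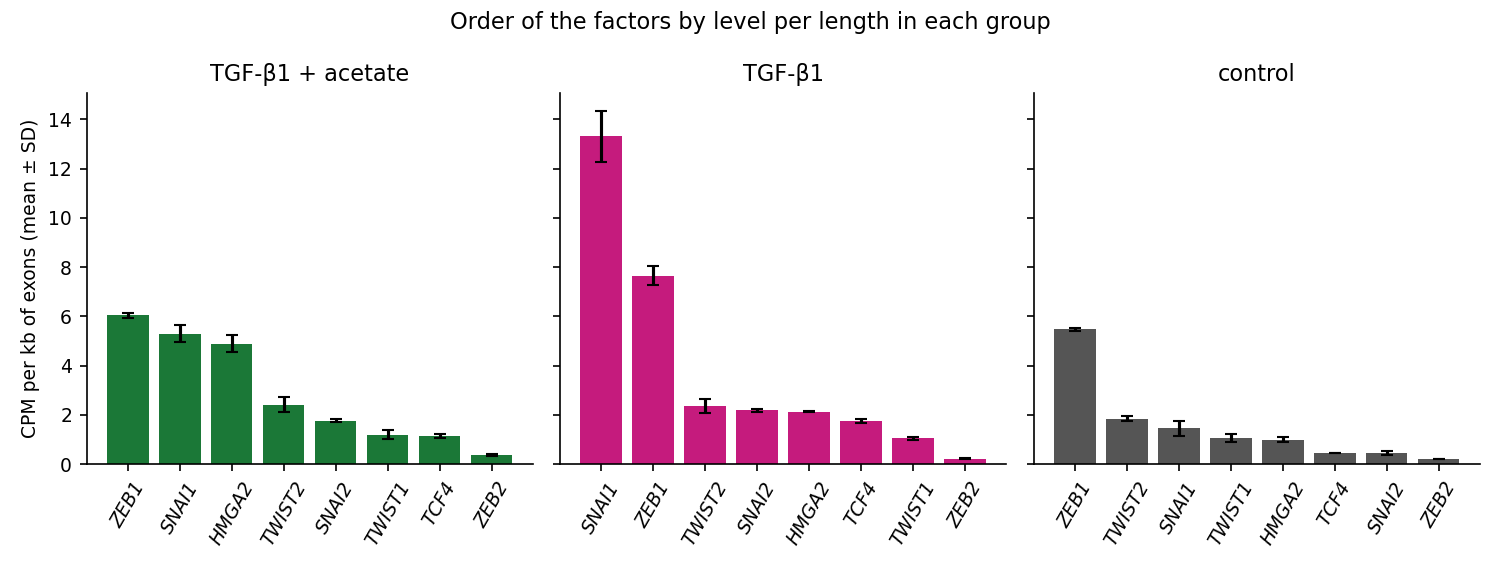
Mean CPM per kb of merged exons of each factor, with SD over 4 libraries, ordered from high to low within each group (bars start at 0). SNAI1 leads with TGF-β1 alone and ZEB1 leads in both other groups, and ZEB2 is last in all 3.

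The genes that the factors are known to repress were examined next; the list was drawn up with earlier results of these data known. Of 14 epithelial targets, 11 were in the tables. Under TGF-β1, 9 fell and none rose, with a median log2 fold change of -1.25, beside 32.8% and 34.1% of all genes and a median of 0.02. The counts of the lists below are likewise to be read beside the shares of all genes that passed: 66.9% under TGF-β1, 63.7% for acetate on TGF-β1 and 70.6% for both agents against control. For acetate on TGF-β1, 7 rose and 1 fell (median 0.65, beside 0.03). For both agents against control, 1 rose and 6 fell (median -0.37, beside 0.02).

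CDH1, which encodes E-cadherin, had 45.5 ± 2.56 CPM with TGF-β1 plus acetate, 1.46 ± 0.394 CPM with TGF-β1 and 58.7 ± 2.8 CPM in control. Its log2 fold change for acetate on TGF-β1 was 4.97 (SE 0.107, edgeR adjusted p = 1.3e-14). CDH1 with acetate was thus at 77.6% of control while its repressors SNAI1 and SNAI2 were at 365% and 400.5% of control. ZEB1 stood at 110% and ZEB2 at 182%. The epithelial adhesion gene EPCAM was at 133% of control with acetate and at 25.5% with TGF-β1. The splicing regulator ESRP1 was at 82.2% with acetate and at 29.6% with TGF-β1. Its counts were low, at 21 to 30 reads a library with acetate, 5 to 12 with TGF-β1 and 26 to 57 in control.

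The polarity gene LLGL2 was at 41.9% of control with acetate, against 17.2% with TGF-β1. The desmosomal gene PKP3 was low in both treated groups, at 24.3% with acetate and 27.0% with TGF-β1, and acetate on TGF-β1 did not pass (log2 fold change -0.14, edgeR adjusted p = 0.15). The genes whose promoters are shown above, CRB3 and PATJ, were at 64.9% and 56.5% of control with acetate and at 42.0% and 50.7% with TGF-β1. OVOL2, a repressor of ZEB1 in epithelia, was the 1 target that fell with acetate (log2 fold change -0.48, edgeR adjusted p = 1.1e-05). CRB3 was named after its values were seen, for its promoter.

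**Figure D5:**
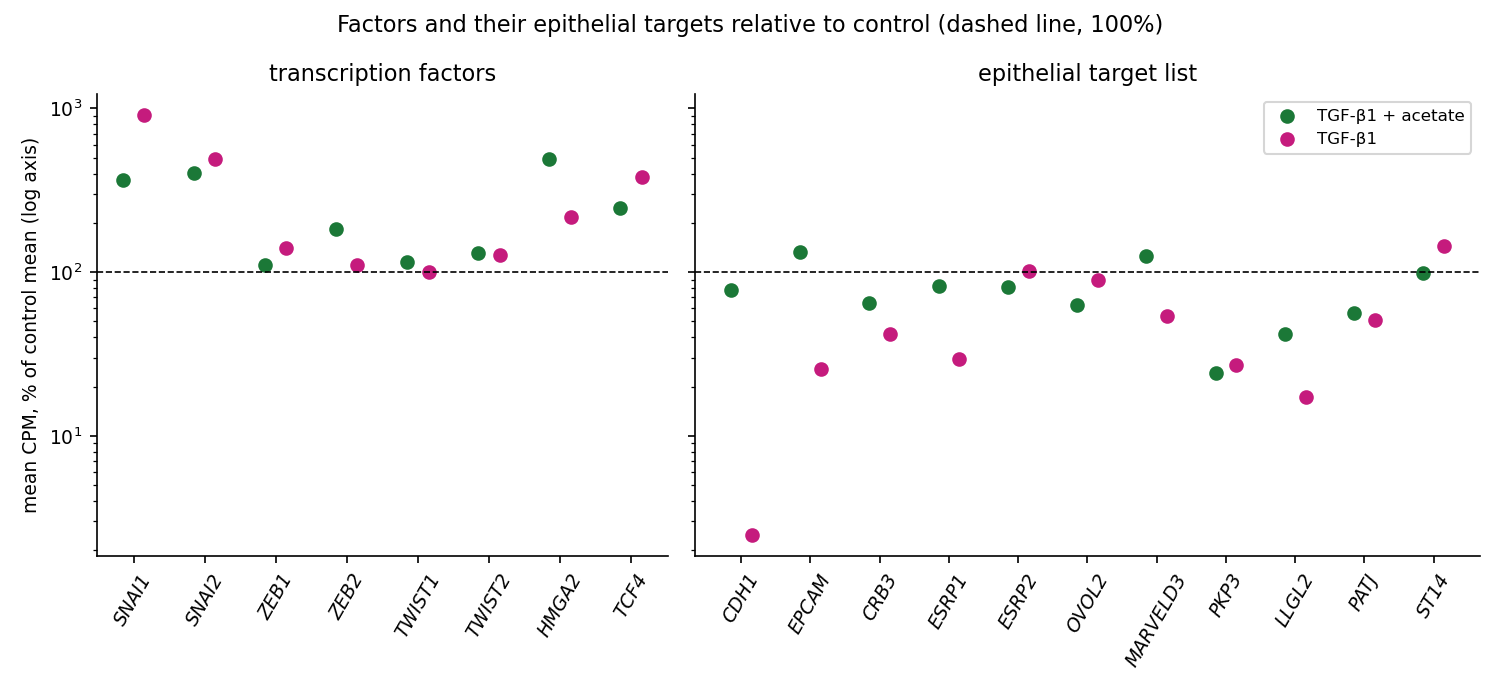
Mean CPM as a percentage of the control mean (log axis, dashed line at 100%) for the 8 factors on the left and the 11 measured epithelial targets on the right, for TGF-β1 plus acetate and TGF-β1. CDH1 is at 77.6% with acetate and at 2.48% with TGF-β1, whereas SNAI1, SNAI2, HMGA2 and TCF4 lie at 215% of control or more in both treated groups.

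Of the mesenchymal targets, all 8 rose under TGF-β1 (median log2 fold change 2.14) and all 8 were above control with both agents (median 2.73), while with acetate on TGF-β1 2 rose and 5 fell (median -0.18). N-cadherin (CDH2) had 289 ± 7.0 CPM with acetate, 338 ± 9.06 CPM with TGF-β1 and 124 ± 2.87 CPM in control. The intermediate filament gene VIM fell with acetate by a log2 fold change of -0.41 (edgeR adjusted p = 4.3e-08), and fibronectin (FN1) had -0.06 (edgeR adjusted p = 0.19). The actin-binding gene TAGLN fell furthest (-1.34), the matrix gene SPARC rose furthest (2.69) and the fibronectin receptor gene ITGA5 rose by 0.86. MMP2, CDH11, TAGLN and CDH2 had the smallest p under TGF-β1, with log2 fold changes of 4.77, 6.04, 4.67 and 1.45.

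Fibroblast markers, like ZEB2 and HMGA2, had their highest summed level with acetate. Of the 8 markers, 7 were in both tables, and their summed level was 62.7 to 69.1 CPM with TGF-β1 plus acetate, 16.4 to 19.6 CPM with TGF-β1 and 5.22 to 5.82 CPM in control. All 7 rose under TGF-β1, beside 34.1% of all genes. Acetate on TGF-β1 raised 4 and lowered 2 of 8, beside 33.3% and 30.4% of all genes. In control DCN held 1 to 2 reads a library, FAP 1 to 6, COL3A1 7 to 15 and PDGFRB 8 to 17. Such genes passed the filter on low counts only through the groups where they are high, so their rise was partly fixed by the filter. The sum with acetate was mostly THY1 (44.4 ± 2.6 CPM) and LUM (15.3 ± 1.43 CPM), whereas PDGFRB had 0.645 ± 0.201 CPM and COL1A2 was not in the table that holds control. Their part in the changes of the factors was not tested. In these bulk libraries fewer cells of a kind and less RNA per cell cannot be told apart.

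The partners of the bHLH factors passed about as often as all genes did under TGF-β1. Of 7 measured E protein, ID and HAND genes, 3 rose and 2 fell under TGF-β1 (median log2 fold change -0.01), beside 34.1% and 32.8% of all genes (median 0.02). With acetate on TGF-β1, 1 rose and 5 fell (median -0.52), beside 33.3% and 30.4% of all genes (median 0.03). The E protein gene TCF12 had 145 ± 3.87 CPM with acetate, 209 ± 6.03 CPM with TGF-β1 and 212 ± 4.07 CPM in control, so that it fell with acetate (log2 fold change -0.52, edgeR adjusted p = 3.2e-09) and had -0.01 under TGF-β1 (edgeR adjusted p = 0.79). TCF3 went the way of ZEB1, with 0.45 under TGF-β1 and -0.26 with acetate. ID1, a dominant inhibitor of E proteins, was at 83.9 ± 3.81 CPM with acetate, against 177 ± 15.3 CPM with TGF-β1 and 188 ± 6.39 CPM in control. ID2 fell under TGF-β1 (-1.65) and ID3 rose (0.75), and ID4 was lower with acetate than with TGF-β1 (-1.79).

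Among 21 other transcription factors linked to the transition, 18 were in the tables. Under TGF-β1, 11 of 17 tested rose and 5 fell (median log2 fold change 0.53), and acetate on TGF-β1 raised 7 and lowered 4 of 18 (median 0.01). PRRX2, the relative of PRRX1, had 10.7 ± 0.662 CPM with acetate, 2.69 ± 0.188 CPM with TGF-β1 and 1.06 ± 0.189 CPM in control, and its log2 fold change for acetate on TGF-β1 was 2.00 (edgeR adjusted p = 1.9e-11). ETS2 and SOX4 took the course of SNAI1, with 1.69 and 1.51 under TGF-β1 and -1.20 and -0.47 with acetate. FOXQ1 took the opposite course, with -2.01 and 1.69. RUNX1 rose under TGF-β1 (1.89), and acetate on TGF-β1 gave -0.09 (edgeR adjusted p = 0.23).

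SNAI3, the third member of the Snail family, was chosen after its values were seen: it had 3.58 ± 0.248 CPM with acetate, 1.75 ± 0.163 CPM with TGF-β1 and 1.21 ± 0.095 CPM in control. It overlaps SNAI3-AS1, which had 7.54 ± 1.17 CPM with acetate, 4.22 ± 0.188 CPM with TGF-β1 and 2.96 ± 0.61 CPM in control, so reads of this pair may not be told apart. A list of 11 noncoding transcripts held antisense transcripts, microRNA host genes and LINC00667. Of the 11, 5 were in the tables under the symbol searched, and others could stand there under another name. Only ZEB1-AS1 among those found overlaps exons of a factor followed here. Of these 5, 4 rose and 1 fell under TGF-β1 (median log2 fold change 0.25), and acetate on TGF-β1 raised 2 and lowered 1 (median 0.09). NR2F1-AS1 fell under TGF-β1 (-0.31) and rose with acetate (0.77). The let-7b host gene MIRLET7BHG rose under TGF-β1 (0.25, edgeR adjusted p = 6.1e-04) and had 0.09 with acetate (edgeR adjusted p = 0.09), and LINC00667 rose under TGF-β1 (0.30).

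RNA-binding proteins that act on let-7 or on the HMGA2 mRNA had 8 tested members of a list of 12 symbols. In that list TUT4 and ZCCHC11 name the same gene, as do TUT7 and ZCCHC6. Under TGF-β1, 4 rose and 2 fell (median log2 fold change 0.15), and acetate on TGF-β1 raised 3 and lowered 2 (median 0.07). IGF2BP2, an mRNA-binding protein whose gene is a known HMGA2 target, had 24 ± 1.34 CPM with acetate, 13.3 ± 0.534 CPM with TGF-β1 and 15.1 ± 0.434 CPM in control. It rose with acetate by a log2 fold change of 0.86 (edgeR adjusted p = 1.8e-09) and fell under TGF-β1 by 0.18 on the log2 scale (edgeR adjusted p = 0.007). IGF2BP3 rose with acetate (0.35), and IGF2BP1 rose under TGF-β1 (0.26) and fell with acetate (-0.24). LIN28B, which blocks let-7 maturation, fell under TGF-β1 (-0.61) and had 0.21 with acetate (edgeR adjusted p = 0.076). The terminal uridylyltransferase gene ZCCHC11 rose under TGF-β1 (0.39) and fell with acetate (-0.38), and DICER1 rose under TGF-β1 (0.29).

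Of 13 genes of the receptor and SMAD pathway upstream, 9 rose and 4 fell under TGF-β1 (median log2 fold change 0.29), and acetate on TGF-β1 raised 2 and lowered 5 (median -0.07). The receptor gene TGFBR1 and the feedback gene PMEPA1 rose under TGF-β1 by log2 fold changes of 2.57 and 1.43, and acetate on TGF-β1 gave -0.07 and 0.04 without passing (edgeR adjusted p = 0.12 and 0.43). The partner receptor TGFBR2 had 388 ± 13.2 CPM with acetate, 121 ± 2.09 CPM with TGF-β1 and 283 ± 8.15 CPM in control. SMAD2, SMAD4 and SMAD7 fell with acetate by log2 fold changes of -0.55, -0.51 and -0.33, whereas SMAD3 fell under TGF-β1 (-1.36) and rose with acetate (0.43, edgeR adjusted p = 1.2e-06).

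A list of corepressors and chromatin partners of the factors, which also took in the receptor gene NOTCH1, held 18 genes, all in the tables. Under TGF-β1, 8 rose and 7 fell (median log2 fold change 0.08), beside 34.1% and 32.8% of all genes (median 0.02). With acetate on TGF-β1, 6 rose and 10 fell (median -0.19), beside 33.3% and 30.4% of all genes (median 0.03). Of genes that Snail recruits to chromatin, the histone demethylase KDM1A rose under TGF-β1 (0.76), the histone methyltransferase SUV39H1 fell with acetate (-1.12), EZH2 fell (-0.57) and HDAC1 rose (0.37). PRMT5 fell with acetate (-0.43). LOXL2 rose under TGF-β1 (0.92), and the LIM protein gene AJUBA and NOTCH1 fell (-2.36 and -0.69).

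Genes for the degradation or protection of the factor proteins had 22 of 24 members in the tables. Under TGF-β1, 9 rose and 7 fell (median log2 fold change 0.05), so that 16 of 22 passed, beside 66.9% of all genes. With acetate on TGF-β1, 2 rose and 6 fell (median -0.06), so that 8 of 22 passed, beside 63.7% of all genes. The ubiquitin ligase gene FBXL5 rose under TGF-β1 (0.83) and fell with acetate (-0.52), as did the deubiquitinase gene USP47 (0.41 and -0.41). BTRC rose under TGF-β1 (0.38) and FBXL14 fell (-0.64), both encoding ligase subunits for Snail. With acetate the kinase gene PAK1 rose (0.45) and SIAH1 fell (-0.43).

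For each factor the protein-coding genes at or above the median level with the most similar course over the 12 libraries were named by Pearson correlation of log2 CPM. The libraries form 3 groups of 4, so the value mostly reflects the order of the group means. SNAI1 was most like GNG4 (0.997) and AP2M1 (0.994), and SNAI2 most like SLC39A10 (0.998) and SFRP1 (0.997). ZEB1 was most like ADAM12 and MAP3K4 (0.99 each), and ZEB2 most like CITED4 (0.99) and MINK1 (0.988). HMGA2 was most like GLIPR1 (0.997) and AACS, the acetoacetyl-CoA synthetase gene (0.996). TCF4 was most like the integrin gene ITGA1 and KIAA1024 (0.998 each). The values were lower for TWIST2, with CSTF1 (0.945) and NOP10 (0.933), and for TWIST1, with CCNL2 (0.802) and ARSK (0.736).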

How the data were processed

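Gene counts of 12 libraries came from 2 deposited tables of raw counts per gene. The tools bcl2fastq, HISAT2 and limma and the build hg38 were used, per the submitters' processing notes. The counter and its strand setting are not named in those sources. The authors' deposited tables also hold a log2 fold change with a p-value and q-value per gene. For the 8 factors their log2 fold changes differed from the edgeR values by at most 0.0267. A further 32 per-library columns on other scales were not used. The TGF-β1 counts stand in both tables and are identical there over 23771 shared genes.

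Genes passed filterByExpr at a minimum count of 10 and a minimum total of 15; counts were TMM-scaled and tested two-sided with glmQLFit and glmQLFTest in edgeR 4.0.16 (R 4.3.3), with Benjamini-Hochberg adjustment over all genes tested and a threshold of 0.05, after a check on simulated counts. TGF-β1 against control and acetate against TGF-β1 were each fitted in 1 table, and both agents against control on all 12 libraries joined on shared genes; levels come from that joint fit. The standard error is the log2 fold change divided by the square root of F. Scaling, filter, DESeq2 1.42.0, limma-voom (limma 3.58.1), the joint fit and leaving out each library were the alternatives. Identifiers matched GENCODE 29 for 99.1% of genes; SNAI2, ZEB2 and TCF4 did so in another version, whose exons gave the lengths.

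Members, lists and tests were chosen with earlier results of these data known. Named are all 9 factors, in each list up to 4 genes with the smallest p under TGF-β1 and up to 4 with acetate, a set of preset genes (CDH1, EPCAM, ESRP1, OVOL2, CDH2, VIM, FN1, the ID, E protein, LIN28B and IGF2BP genes among them), and 2 genes most similar to each factor. A gene that this rule names is not reported here, although counts over its list include it.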

Additional observations from a re-analysis of the deposited data

How the results depend on the processing

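No paired analysis was possible because the count columns carry no replicate number. Of 360 alternative values for the fold changes of the 8 factors, 358 kept the call of the main fit (higher, lower or not called). The number of factors called stayed at 6, 6 and 7 in every alternative. The exceptions, both for acetate against TGF-β1 with library totals, were SNAI2 at -0.16 (edgeR adjusted p = 0.066) and TWIST1 at 0.33 (edgeR adjusted p = 0.037). That scaling moved the median log2 fold change of all genes to 0.16 and the share of called genes that were higher to 67.1% (9592 higher and 4699 lower), against 52.3% (7437 and 6792) with TMM. For TGF-β1 against control it moved the same share to 41.2%, against 51%. Leaving out single libraries kept the genes called between 13523 and 16184 over the 3 comparisons. The log2 difference of the ZEB1/ZEB2 ratio for acetate against TGF-β1 ran from -1.11 to -0.99 with single libraries left out. Levels per kb with the longest transcript in place of merged exons, chosen after seeing the data, put HMGA2 first with acetate. Counts were low for SNAI2 in control (58 to 87 a library), for SNAI1 in control (77 to 168) and for TWIST1 (77 to 114).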
